A study of Mus musculus with 8 samples.

Results

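The sciatic nerve of wild-type mice was compared with a common reference RNA on 2-colour microarrays, in which both RNAs compete for the same spots. The arrays were chosen by their titles, which name wild-type mice aged 60 days, and 4 of the 8 arrays of the series met this rule. Each array held total RNA of 1 nerve sample labelled male, in the dye Cy3, against a pool of RNA from neonatal heart, liver and kidney of wild-type and SOD1G93A mice, in the dye Cy5. The remaining 4 arrays held nerves of the mutant SOD1 transgenic line SOD1G93A and entered only a check of sex-linked genes and 1 alternative fit. No dye was swapped on any array, so dye and tissue cannot be told apart. Age differs along with them, since the nerves were 60 days old and the pool neonatal, so it cannot be told apart either. The series describes its replicates as biological, without saying which animals or how many went into each. The pool is 1 RNA used on every array, so its own spread was not measured.

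A peripheral nerve holds axons whose cell bodies lie in the spinal cord and ganglia, and Schwann cells that ensheath them. Myelinating Schwann cells wrap 1 stretch of 1 axon each and build a membrane rich in cholesterol, galactolipids and a few proteins such as PMP22 and myelin basic protein. Non-myelinating Schwann cells hold bundles of thin axons. Fibroblasts and collagen, a sheath of perineurial cells, vessels, fat, mast cells and macrophages fill the rest.

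A log2 ratio here is the nerve signal over the reference signal on the log2 scale, so a positive value means a brighter nerve channel. Values after ± are SDs over the 4 arrays, and lists of 4 values are in the order of replicates 1, 2, 3 and 4. A gene was called when limma's treat test against a log2 ratio of 1, that is a doubling, gave a Benjamini-Hochberg adjusted p under 0.05. In such bulk RNA, more cells of a type and more RNA per cell cannot be told apart.

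The labels were checked against marker genes first, and on 2 points the data went against them. On the array labelled wild-type replicate 1, the Y-linked genes Ddx3y and Eif2s3y were not above background in the nerve channel. Their log2 ratios were -3.74 and -3.27 there, while Ddx3y lay between 0.10 and 0.44 and Eif2s3y between -0.85 and -0.66 on the other 7 arrays, on which both were above background. Xist, the RNA that silences an X chromosome in female cells, was above background in the nerve channel on this array with both of its probes, at a Cy3 signal of 375 and 216, and on 0 of the other 7 arrays. The array is therefore called by its label, and the main results are also given without it.

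The reference also held genes that its label does not lead to. Of 13 lung genes, a list made after the data were seen, 13 were above background in the reference channel on all 4 arrays and 12 were called higher in the reference, against 7.43% of all genes tested. Liver genes were there in part: 21 of 22 plasma protein genes and 14 of 20 metabolism genes were above background in the reference on all 4 arrays, as were 19 of 21 kidney genes. Detection in this channel was common. Between 49.3% and 51.1% of all non-control spots were well above background in it on an array. Of the 19977 genes that passed the filter described below, 19059 were so on all 4 arrays. Albumin (Alb) and alpha-fetoprotein (Afp) were above background in the reference on all 4 arrays, whereas among the liver genes that were not, Cps1, the mitochondrial enzyme that starts the urea cycle, was above background on 1 array and Cyp7a1, Tdo2, Otc and Foxa3 on 0. How many parts of each organ went into the pool was not given in the sources used here.

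Between 35.6% and 41.7% of the 59305 non-control spots were well above background in the nerve channel and between 49.3% and 51.1% in the reference channel, and 0 were saturated. Gene-level log2 ratios of any 2 arrays correlated with a Pearson coefficient between 0.929 and 0.977 across genes, which are not independent replicates. The added spike-in control RNAs tracked their expected ratios on each array, with a correlation between 0.971 and 0.979. After normalization, the observed log2 ratio of nerve over reference exceeded the expected one in the mean over spike-in spots, by 1.53, 2.18, 1.91 and 2.04 on the 4 arrays, a mean of 1.91 ± 0.28. All ratios below are therefore relative to the bulk of the genes on the array, whose median was -0.08, and a zero set by the spike-ins would lie 1.91 higher, which turns ratios between 0 and 1.91 negative. Whether this offset came from the amounts of RNA, the labelling or the scanner was not tested.

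Promoter sequences of a few genes on which the comparison turns show what lies before their start sites. They are the 120 bases before a RefSeq start on build GRCm38.p6, read along the gene's strand, with matches to 1 motif per gene in capitals. For the myelin genes this is ACAAAG on either strand, the core bound by SOX factors such as SOX10. For Actc1, a heart muscle actin, it is the CArG box bound by serum response factor, and for albumin it is GTTAAT, 1 arm of the site bound by the liver factor HNF1. Pmp22 is shown at the first of its 4 listed starts and Prx at its only one. Mag has 3 listed starts and Gjb1 has 4. Each is shown at the start whose match lies nearest, so these windows were chosen for holding the motif.
Pmp22, chr11:63128862-63128981, plus strand: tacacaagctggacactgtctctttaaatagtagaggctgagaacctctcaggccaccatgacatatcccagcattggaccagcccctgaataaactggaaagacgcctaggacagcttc
Prx, chr7:27499204-27499323, plus strand: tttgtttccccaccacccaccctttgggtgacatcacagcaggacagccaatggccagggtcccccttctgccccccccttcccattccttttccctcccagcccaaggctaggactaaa
Mag, chr7:30914923-30915042, minus strand: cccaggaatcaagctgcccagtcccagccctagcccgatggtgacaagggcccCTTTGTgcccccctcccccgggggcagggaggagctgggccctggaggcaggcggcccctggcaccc
Gjb1, chrX:101383612-101383731, plus strand: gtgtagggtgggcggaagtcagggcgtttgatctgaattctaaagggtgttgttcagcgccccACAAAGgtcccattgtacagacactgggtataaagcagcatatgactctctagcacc
Actc1, chr2:114052876-114052995, minus strand: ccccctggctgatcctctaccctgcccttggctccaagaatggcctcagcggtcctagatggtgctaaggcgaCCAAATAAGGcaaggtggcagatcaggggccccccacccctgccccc
Alb, chr5:90460750-90460869, plus strand: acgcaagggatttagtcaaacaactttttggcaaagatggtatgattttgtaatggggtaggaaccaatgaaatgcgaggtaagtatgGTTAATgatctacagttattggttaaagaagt
Mag and Gjb1 hold the SOX core within their 120 bases, the match beginning at base -67 and base -57 from the start. The letters are not in the windows shown of Pmp22 and Prx. Over windows of 300 bases, from 250 before to 50 after a start, the SOX core lay in 7 of 24 windows of the structural myelin genes (29.2%), some of which overlap because 12 genes gave all 24, against 18.7% of 32851 windows of all genes. It lay in 1 of 18 windows of the Schwann cell regulators (5.56%) and in 3 of 10 of the lung genes (30.0%), and the NKX2 core, CAAGTG on either strand, also lay in 7 of the 24 myelin windows, against 13.6% of all. The HNF1 motif lay in 7 of 21 windows of liver plasma protein genes (33.3%) against 7.1% of all. The CArG box lay in 3 of 22 windows of cardiomyocyte genes (13.6%) and in 4 of 18 of the Schwann cell regulators (22.2%) against 1.63% of all. These are counts of letters and say nothing of binding.

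Of 55681 non-control probes, 26809 were well above background in 1 and the same channel on at least 3 of the 4 arrays, which gave 19977 genes with 1 probe each. By the treat test of limma, 1495 genes were higher in nerve (7.48%) and 1485 were higher in the reference (7.43%), together 14.9% of the genes tested. The count of calls in each gene list below is to be set against these shares. At an unadjusted p under 0.05 the same test gave 1733 and 1709. Of the nerve calls, 46 had a reference channel not well above background on any array. Of the reference calls, 417 had a nerve channel not well above background on any array. Over all genes kept, 92 were above background in the nerve channel on 4 arrays and in the reference channel on 0, and 2720 the other way round. The channels differ in this respect for genes at large. In all, 14218 genes were above background in nerve on all 4 arrays and 19059 in the reference. Median local background was 41.5 to 50 in Cy3 and 18 to 19 in Cy5. A dim nerve channel is thus not absence from nerve, and the part of the background was not tested. The split of the calls depends on where zero lies: nerve calls were 50.2% of all calls, 39.0% with the scanner program's own processed signals, 81.6% without normalization and 1.12% (185 nerve and 16285 reference calls, 0.926% and 81.5% of genes) with the zero set by the spike-ins. Without the array labelled wild-type replicate 1, 1534 genes were higher in nerve (7.68%) and 1510 in the reference (7.56%).

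**Figure D1:**
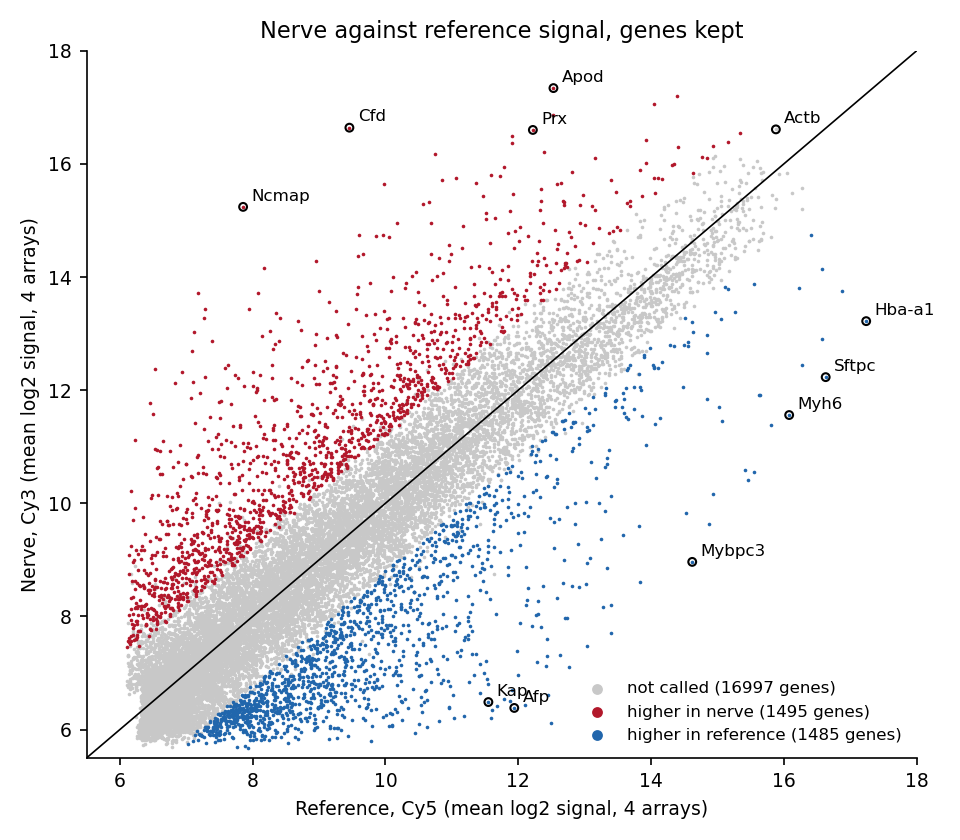
Each point is 1 of 19977 genes, with its mean log2 reference signal (Cy5) on the horizontal axis and its mean log2 nerve signal (Cy3) on the vertical axis over 4 arrays, after normalization; the line marks equal signal. The 1495 genes called higher in nerve (red) lie above the line, among them Ncmap, Cfd and Prx, and the 1485 called higher in the reference (blue) below it, among them Sftpc, Myh6 and Hba-a1.

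Genes of the myelin sheath stood far above the reference. All 17 listed structural myelin genes passed the filter, of which 15 were called higher in nerve and 1 higher in the reference, with a median log2 ratio of 4.21 against -0.08 for all genes. Pmp22, a membrane protein whose gene dosage matters for myelin stability (probe on chromosome 11, 62971862 to 62971921 of build mm9), had log2 ratios of 4.09, 4.74, 4.53 and 4.53. Its mean of 4.47 ± 0.27 is a fold of 22.2 (adjusted p = 8.77e-07), and its other kept probe gave 6.14. Prx, which encodes periaxin of the Schwann cell's outer membrane (chromosome 7, 28304999 to 28305058), read 4.06, 4.69, 4.43 and 4.37, a mean of 4.39 ± 0.26 (adjusted p = 8.49e-07). In both genes replicate 1 was the lowest, and all 4 arrays lay above a doubling.

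The partner of periaxin, dystrophin-related protein 2 (Drp2), had the highest ratio of the list, with values of 6.34, 6.74, 6.43 and 6.60 and a mean of 6.52 ± 0.18 (adjusted p = 1.34e-07). Other members with a log2 ratio over 4 were the myelin-associated glycoprotein Mag at 4.81 ± 0.19, the nucleotide phosphodiesterase Cnp at 4.75 ± 0.30, the raft protein Mal at 4.59 ± 0.27, the fatty acid binding protein Pmp2 at 4.32 ± 0.38, the tight junction claudin Cldn19 at 4.21 ± 0.15 and gliomedin (Gldn), which gathers sodium channels at nodes, at 4.16 ± 0.25. Cd9, a tetraspanin, reached 3.96 ± 0.35, myelin basic protein Mbp 3.61 ± 0.22 and connexin 32 (Gjb1), the gap junction protein of Schwann cells, 3.06 ± 0.24. Lower ratios came from neurofascin (Nfasc), whose isoforms serve both axon and glia, at 1.29 ± 0.18 (adjusted p = 0.0311), a call lost without replicate 2, 3 or 4 (adjusted p = 0.127, 0.11 and 0.116). The scaffold protein Mpp6 was not called at 0.35 ± 0.24. Tspan2, a tetraspanin first known from oligodendrocytes, was the exception, at -1.85, -2.06, -2.06 and -2.15 with a mean of -2.03 ± 0.13 (adjusted p = 2.51e-05), called higher in the reference. The medians of the list on the 4 arrays were 3.79, 4.30, 4.25 and 4.37, and with the zero set by the spike-ins 12 members remained above a doubling in nerve, with a median of 2.30.

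**Figure D2:**
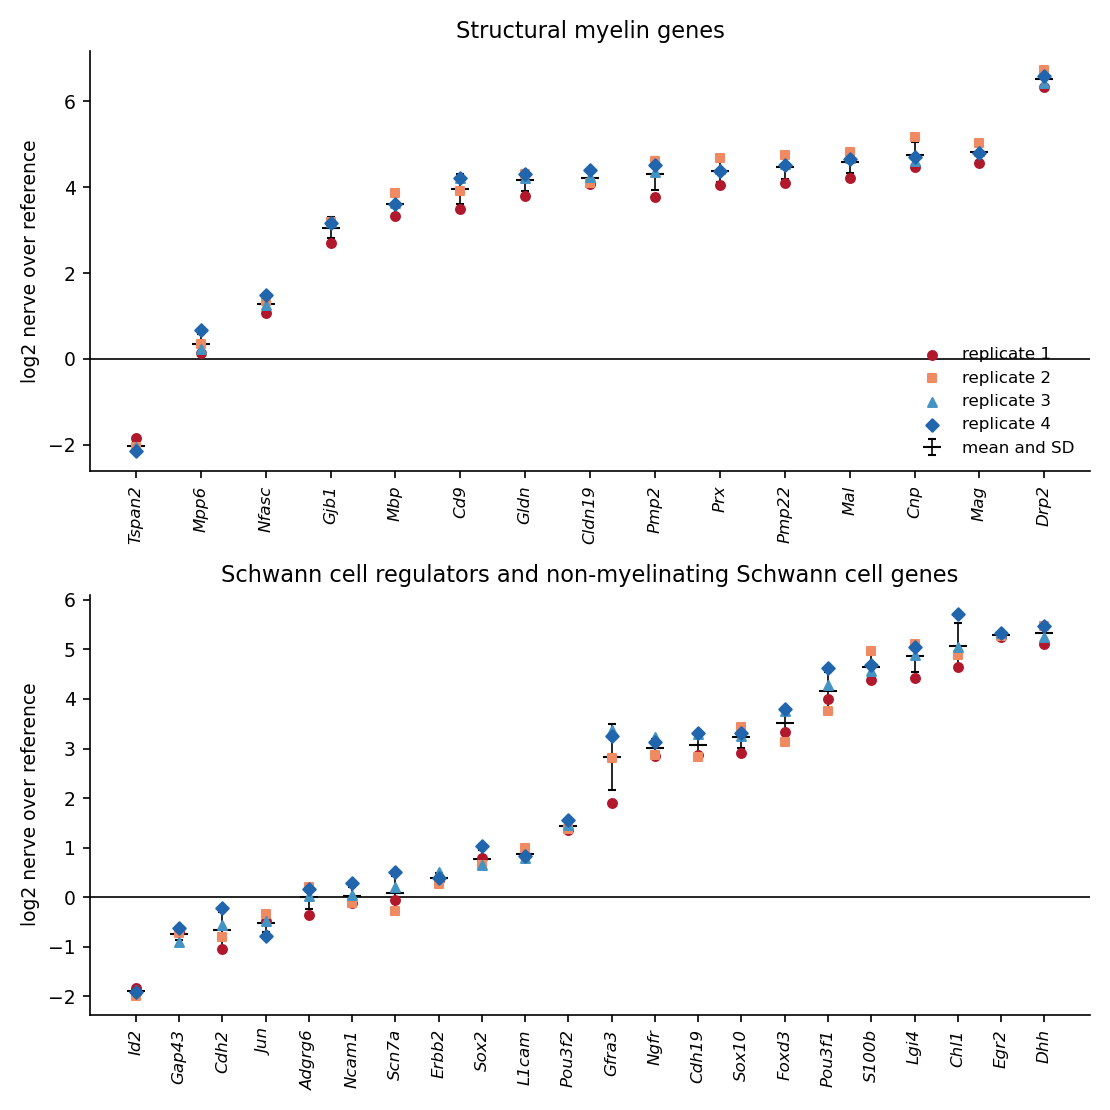
The log2 ratio of nerve over reference is plotted on the vertical axis for the structural myelin genes named in the text (upper panel) and the Schwann cell regulators and non-myelinating Schwann cell genes named there (lower panel), as 1 point per array with the mean and SD in black. The structural myelin genes shown, except Tspan2, lie above 0 on all 4 arrays, and Egr2 and Dhh lie above 5.

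The enzymes that make myelin lipids followed the same direction. Of 20 listed genes, 20 passed the filter, 16 were called higher in nerve and 0 in the reference, with a median log2 ratio of 2.65. The galactolipid branch had the highest ratios. Fa2h, which hydroxylates the fatty acids of galactolipids, read 5.62, 6.38, 6.39 and 6.28, a mean of 6.17 ± 0.37 (adjusted p = 5.43e-07), and Ugt8a, which adds the galactose, read 5.04, 5.72, 5.57 and 5.58, a mean of 5.48 ± 0.30 (adjusted p = 5.02e-07). Gal3st1, which turns galactosylceramide into sulfatide, had a mean of 3.07 ± 0.24. Among fatty acid enzymes, the desaturase Scd2 stood at 4.16 ± 0.36, the elongase Elovl6 at 3.79 ± 0.33, Elovl1 at 2.62 ± 0.22 and ceramide synthase Cers2 at 2.18 ± 0.25.

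Cholesterol synthesis was higher in nerve along most of the pathway. Hmgcs1 had a mean of 3.55 ± 0.62, Sc5d of 3.00 ± 0.31, Sqle of 2.68 ± 0.39, Idi1 of 2.68 ± 0.51, Fdft1 of 2.49 ± 0.29, Fdps of 2.12 ± 0.47 and Lss of 1.80 ± 0.44. Dhcr7, Fasn and Cyp51, between 0.75 and 1.17, were not called. Without replicate 3 the call of Lss was lost (adjusted p = 0.0502). Replicate 1 was low on this list, with medians of 2.20, 2.80, 2.83 and 2.83 on the 4 arrays, and without it 17 members were called. With the zero set by the spike-ins 6 members were called higher in nerve and the median was 0.74.

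Transcription factors and signals that drive Schwann cells towards myelin stood among the highest ratios of regulators. Of 19 listed, 17 passed the filter, 8 were called higher in nerve and 1 in the reference, and the median log2 ratio was 1.20, or -0.71 with the spike-in zero. Egr2 (Krox20), the factor required for myelin gene expression, read 5.25, 5.28, 5.33 and 5.34, a mean of 5.30 ± 0.04 (adjusted p = 1.34e-07), with the 4 arrays within 0.1 of each other. Desert hedgehog (Dhh), the Schwann cell signal that organizes the perineurium, read 5.11, 5.47, 5.26 and 5.46, a mean of 5.33 ± 0.17 (adjusted p = 1.95e-07). Sox10, the lineage factor of neural crest glia, read 2.92, 3.44, 3.25 and 3.31, a mean of 3.23 ± 0.22 (adjusted p = 2.94e-06). The arrays did not overlap 0 in any of the 3.

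Lgi4, a secreted Schwann cell signal, had a mean of 4.86 ± 0.31, S100b, a glial calcium-binding protein, of 4.66 ± 0.25, and Pou3f1 (Oct6), which acts just before Egr2 in development, of 4.17 ± 0.38. Foxd3, a factor of early crest and glial precursors, was at least 11.4-fold higher in nerve, its reference signal not being well above background on any array (adjusted p = 6.60e-06), and Pou3f2 was at least 2.64-fold higher. Such bounds set the brighter channel against the dim one, taken at no less than the lowest signal counted as above background. Where the gene's own dim signal is the larger, the bound is the measured fold, as for Foxd3. Jun and Sox2, factors known from immature and injured Schwann cells, stood at -0.52 ± 0.19 and 0.78 ± 0.18 without a call. Adgrg6, the receptor needed to start myelination, stood at 0.01 ± 0.26, and the neuregulin receptor Erbb2 at 0.38 ± 0.10. Erbb3 and Pax3 did not pass the filter. Id2, an inhibitor of basic helix-loop-helix factors, was called higher in the reference at -1.90 ± 0.066 (adjusted p = 1.90e-05).

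Genes of non-myelinating Schwann cells were divided. Of 11 listed, 10 passed the filter, 4 were called higher in nerve and 0 in the reference, with a median of 0.48, or -1.43 with the spike-in zero. The adhesion molecule Chl1 read 4.64, 4.88, 5.05 and 5.72, a mean of 5.07 ± 0.46 (adjusted p = 2.98e-06), and the neurotrophin receptor Ngfr read 2.85, 2.88, 3.22 and 3.12, a mean of 3.02 ± 0.18 (adjusted p = 2.55e-06). Gfra3, a co-receptor for artemin, had a mean of 2.83 ± 0.67 with replicate 1 lowest, and Cdh19, a glial cadherin, was at least 8.29-fold higher in nerve. The others lay near the bulk of genes, with L1cam at 0.86 ± 0.092, Scn7a at 0.09 ± 0.34, Ncam1 at 0.02 ± 0.19, Cdh2 at -0.65 ± 0.35 and Gap43 at -0.74 ± 0.12, none of them called. Gfap did not pass the filter.

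The ratios of neuronal genes were small. Of 19 listed genes, 14 passed the filter, 2 were called higher in nerve and 1 in the reference, and the median was 0.25, or -1.66 with the spike-in zero. Over all genes, 7.48% were called higher in nerve and 7.43% in the reference. Without the filter on dim probes 34964 genes could be tested, against 19977 with it. The heavy neurofilament gene Nefh read 1.28, 2.42, 1.82 and 2.30, a mean of 1.96 ± 0.52 (adjusted p = 0.00672), and the ubiquitin hydrolase Uchl1 had a mean of 1.5 ± 0.10. Nefl, the light neurofilament gene, stood at 1.32 ± 0.35 without a call (adjusted p = 0.135), and at 1.48 with a call without replicate 1 (adjusted p = 0.00389). The motor neuron genes Chat and Isl1 did not pass the filter, and Rbfox3, a marker of neuronal nuclei, was not above background in nerve on any array. The sensory sodium channel Scn10a was at least 1.67-fold higher in the reference, with no nerve signal well above background on any array (adjusted p = 0.0123), a call lost without replicate 3 (adjusted p = 0.0638). Of 7 listed genes of central glia, 2 passed the filter. Aqp4, the water channel of astrocytes, was at least 2.14-fold higher in the reference, again with no nerve signal well above background (adjusted p = 0.0133), a call lost without replicate 4 (adjusted p = 0.0587), and the oligodendrocyte protein Mog stood at 0.12 ± 0.14 without a call, while Opalin and Olig2 did not pass.

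**Figure D3:**
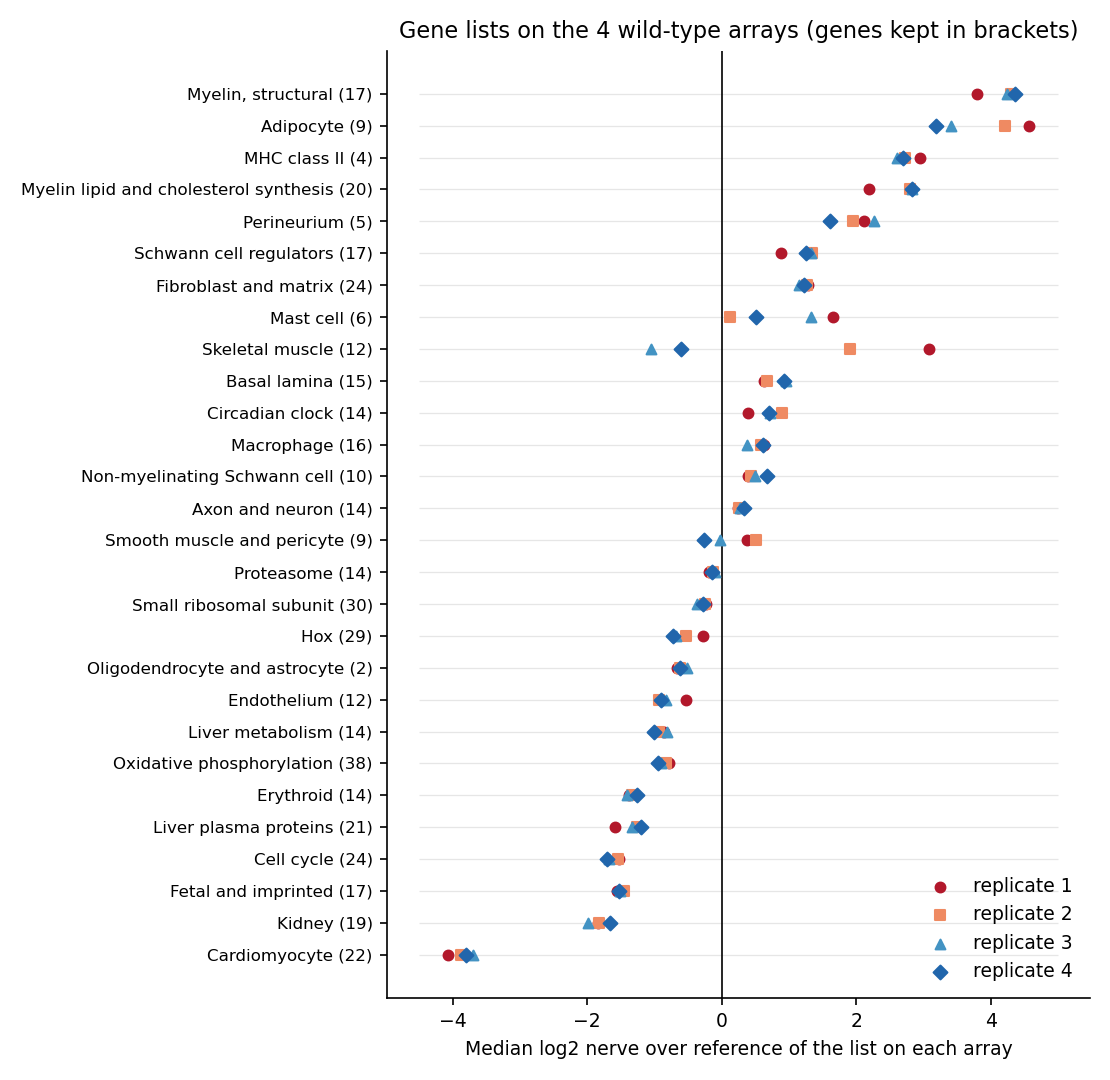
For each of the 28 gene lists, the median log2 ratio of nerve over reference (horizontal axis) is shown on each of the 4 arrays, with the number of genes that passed the filter in brackets. Structural myelin genes lie highest and cardiomyocyte genes lowest on the mean over arrays, and skeletal muscle genes run from -1.05 to 3.08 between arrays.

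Genes of the perineurium, the sheath around bundles of nerve fibres, were divided. Of 5 perineurial genes, all kept, 3 were called higher in nerve and 1 in the reference, with a median of 1.99, or 0.07 with the spike-in zero. Integrin beta 4 (Itgb4), a laminin receptor of perineurial and Schwann cells, read 5.25, 5.77, 5.64 and 5.29, a mean of 5.49 ± 0.26 (adjusted p = 3.32e-07). The glucose transporter Slc2a1 (GLUT1) of the blood-nerve barrier had a mean of 3.31 ± 0.38 and claudin 1 (Cldn1) of 1.99 ± 0.28. The tight junction protein occludin (Ocln) was called higher in the reference at -1.32 ± 0.12, and Tjp1 was not called at 0.43 ± 0.079.

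Of 24 fibroblast and matrix genes, all kept, 12 were called higher in nerve and 1 in the reference, with a median of 1.13, or -0.78 with the spike-in zero, where 6 stayed higher in nerve and 9 were called higher in the reference. The highest were secreted proteins of mature connective tissue. Sfrp4, a secreted inhibitor of Wnt signals, read 5.24, 5.20, 4.45 and 4.28, a mean of 4.79 ± 0.50. Thrombospondin 4 (Thbs4) had a mean of 4.54 ± 0.25, and the small proteoglycans decorin (Dcn), lumican (Lum), osteoglycin (Ogn) and fibromodulin (Fmod) had means of 4.33 ± 0.14, 3.72 ± 0.32, 3.61 ± 0.13 and 2.04 ± 0.43. Collagen I stood lower, at 1.91 ± 0.38 for Col1a1 and 1.90 ± 0.24 for Col1a2, and the 3 collagen VI genes lay between -0.24 and 0.19 without a call. Periostin (Postn), a matrix protein of growing and remodelling tissue, was called higher in the reference at -1.65 ± 0.35 (adjusted p = 0.0079).

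Basal lamina genes stood nearer the bulk, with 3 of 15 called higher in nerve and 0 in the reference, against 7.48% and 7.43% of all genes. The median was 0.82, or -1.09 with the spike-in zero. The called genes were the laminin beta 2 chain Lamb2 at 2.09 ± 0.26, the laminin alpha 2 chain Lama2 at 1.97 ± 0.24, and the laminin receptor Itga6 at 3.21 ± 0.17. Lamb1 and Lamc1, which with Lama2 form laminin 211, the main laminin of Schwann cells, stood at 0.86 ± 0.24 and -0.11 ± 0.045 without a call. The 2 kept probes of Itga6 disagreed, at 3.21 and -2.71. Dag1, which encodes dystroglycan, the other laminin receptor, stood at 1.26 ± 0.21 without a call (adjusted p = 0.0668) and was called without replicate 1 (1.36, adjusted p = 0.00517).

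Fat cell genes were high and varied between nerves. Of 10 listed, 9 passed the filter and 7 were called higher in nerve, with a median of 3.71 and medians of 4.58, 4.22, 3.41 and 3.18 on the 4 arrays. Cfd (adipsin), a serine protease secreted by fat, read 7.29, 7.56, 7.01 and 6.86, a mean of 7.18 ± 0.31 and a fold of 145 (adjusted p = 2.14e-07). The carbonic anhydrase Car3 had a mean of 5.14 ± 0.31, adiponectin (Adipoq) of 4.78 ± 0.71, the lipid droplet proteins Cidec, Plin1 and Plin4 of 4.43 ± 0.52, 3.71 ± 0.88 and 3.15 ± 1.02, and resistin (Retn) of 3.51 ± 0.31. Replicates 1 and 2 lay above replicates 3 and 4 for all 9 genes. With the spike-in zero 6 were called higher in nerve, at a median of 1.79. Fabp4 and Pparg, with means of 1.33 ± 0.97 and 1.28 ± 0.89, were not called.

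Skeletal muscle genes split the nerves in the same way and by more. Of 16 listed, 12 passed the filter, and 1 was called, Cacna1s at 1.56 ± 0.32 (adjusted p = 0.0104). The medians on the 4 arrays were 3.08, 1.91, -1.05 and -0.61, so the list's median of 0.90 describes no single nerve and was 0.14 without replicate 1. The fast troponin Tnnc2 read 3.52, 2.92, -1.97 and -0.83, skeletal actin (Acta1) 2.41, 1.25, -1.91 and -2.15, and the fast myosin Myh4 4.36, 4.29, -0.08 and 1.46, which was called higher in nerve without replicate 3 (3.37, adjusted p = 0.0462). Creatine kinase (Ckm) read -0.77, -2.18, -4.31 and -4.35 and was called higher in the reference when replicate 1 was left out (-3.61, adjusted p = 0.00301). How far muscle or fat was dissected along with the nerve was not measured, and its part in other ratios was not tested. In replicates 3 and 4, where muscle genes were low, the median of the structural myelin genes was 4.25 and 4.37, against 3.79 and 4.30 in replicates 1 and 2.

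Smooth muscle and pericyte genes showed a smaller spread, with medians of 0.37, 0.51, -0.02 and -0.26 on the 4 arrays, highest in replicate 2 and not in replicate 1. Of 9 kept, 1 was called in each direction, and the median of 0.06 changed sign with the setting, to -0.10 without replicate 1, -0.13 without replicate 2, -0.15 with median centring, -0.20 with quantile normalization and -1.86 with the spike-in zero. Tagln, an actin-binding protein of smooth muscle, was higher in nerve at 2.59 ± 0.49, and desmin (Des) higher in the reference at -1.99 ± 0.52. Smooth muscle myosin Myh11 read 2.67, 2.01, 0.46 and 0.13, without a call.

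**Figure D4:**
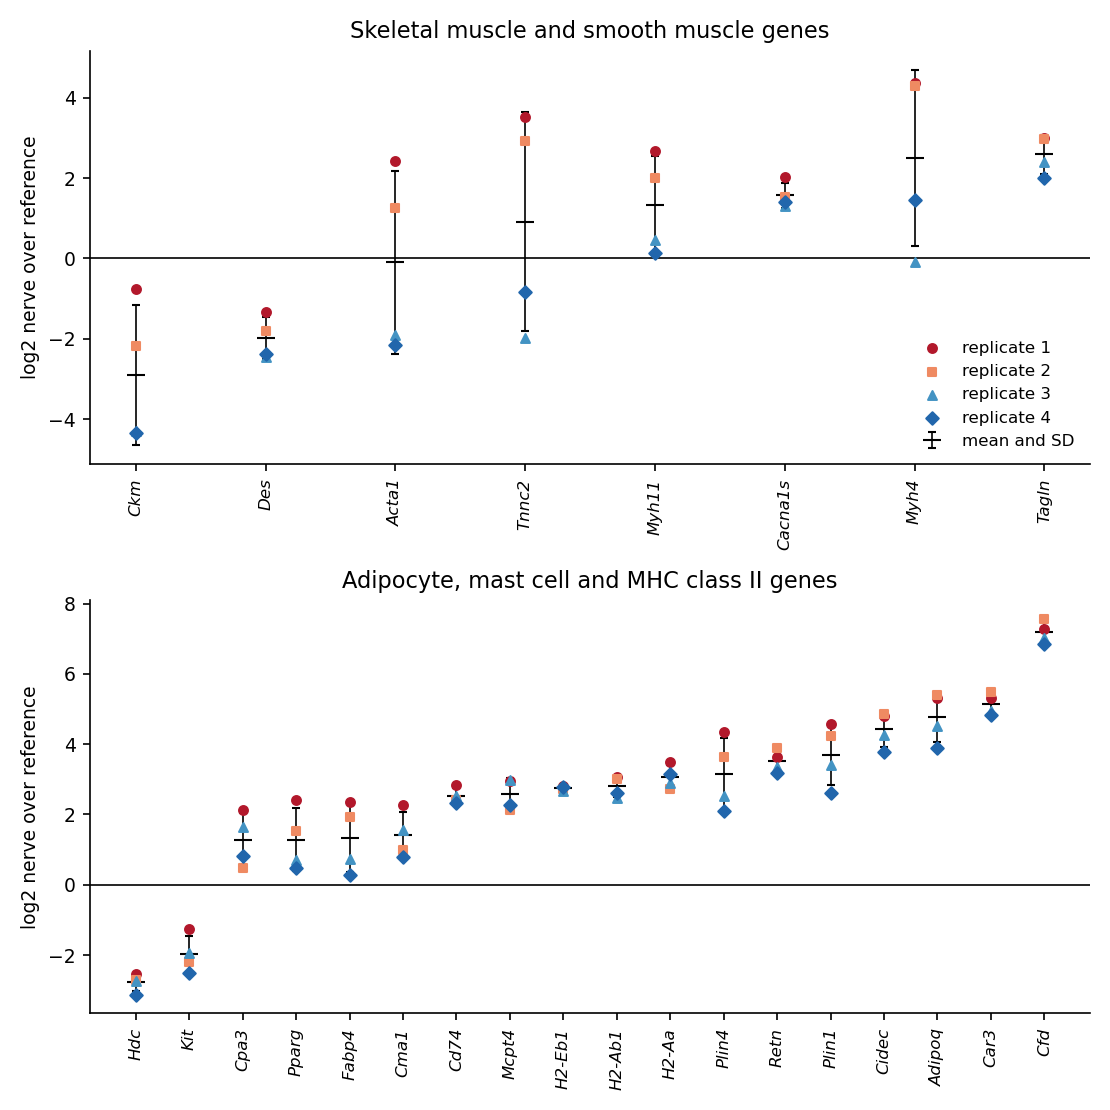
The log2 ratio of nerve over reference (vertical axis) is shown per gene named in the text as 1 point per array with the mean and SD in black, for skeletal and smooth muscle genes (upper panel) and for adipocyte, mast cell and MHC class II genes (lower panel). Replicates 1 and 2 lie above replicates 3 and 4 for Tnnc2, Acta1, Myh4 and the adipocyte genes, while the 4 arrays lie close together for H2-Eb1.

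Endothelial genes leaned to the reference, with 3 of 12 called there, against 7.43% of all genes, 0 in nerve and a median of -0.83. The 3 calls became 1 with median centring and 0, with 1 in nerve, without normalization. These were the receptor Tie1 at -1.66 ± 0.28, VE-cadherin (Cdh5) at -1.48 ± 0.33 and the VEGF receptor Kdr at -1.31 ± 0.10, whose other probe gave 0.22. The call of Cdh5 was lost without replicate 2, 3 or 4 (adjusted p = 0.0951, 0.104 and 0.0533). Pecam1 and Tek stood at -0.45 ± 0.37 and -0.94 ± 0.29 without a call. Von Willebrand factor (Vwf) was the only member with a positive ratio, at 0.95 ± 0.30, also without a call.

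Genes of antigen presentation were called higher in nerve. Of the 5 listed genes of MHC class II, which shows antigen to helper T cells, 4 passed the filter and 4 were called higher in nerve, with a median of 2.77. With the spike-in zero 0 were called, at a median of 0.86. H2-Eb1 read 2.82, 2.73, 2.67 and 2.78, a mean of 2.75 ± 0.062 (adjusted p = 9.28e-07), H2-Aa had a mean of 3.06 ± 0.33, H2-Ab1 of 2.80 ± 0.29 and the invariant chain Cd74 of 2.53 ± 0.22. Macrophage genes stood closer to the bulk, with 2 of 16 called higher in nerve and 1 in the reference. These counts are near the shares of all genes, 7.48% and 7.43%. The median was 0.57, or -1.34 with the spike-in zero. The lectin Clec10a was called at 2.89 ± 0.34, and the growth factor receptor Csf1r at 1.24 ± 0.13 (adjusted p = 0.0404), a call that was lost without replicate 1, 2 or 4 (adjusted p = 0.0748, 0.169 and 0.158). Cd68 and Adgre1 stood at 0.58 ± 0.15 and 0.76 ± 0.23 without a call, and Lyz1 was higher in the reference at -2.54 ± 0.78.

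Mast cell genes went both ways, with 1 of 6 called higher in nerve and 2 in the reference, against 7.48% and 7.43% of all genes. The median was 0.92, or -1.0 with the spike-in zero. The connective tissue mast cell protease Mcpt4 was called higher in nerve, with values of 2.94, 2.11, 2.99 and 2.27 and a mean of 2.58 ± 0.45 (adjusted p = 2.71e-04). Cma1 and Cpa3, at 1.41 ± 0.67 and 1.27 ± 0.76, were not called. Histidine decarboxylase (Hdc), at -2.77 ± 0.25, and the receptor Kit, at -1.98 ± 0.53, were called higher in the reference.

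Beyond the lists, the gene with the highest ratio among those above background in both channels on all 4 arrays was Ncmap, a noncompact myelin-associated protein of Schwann cells (chromosome 4, 134925825 to 134925884). It read 7.03, 7.45, 7.48 and 7.57, a mean of 7.38 ± 0.24 and a fold of 166 (adjusted p = 1.34e-07), and its other probe gave 5.21. Kcna1, a potassium channel of the axon beside the node, read 5.88, 6.10, 6.07 and 5.95, a mean of 6.0 ± 0.10. The kinase Aatk had a mean of 5.99 ± 0.16 and Cntf, the ciliary neurotrophic factor made by Schwann cells, of 5.66 ± 0.33. Cadm4, a Schwann cell adhesion molecule that binds the axon, stood at 5.62 ± 0.31, and Ndrg1, mutated in a hereditary neuropathy, at 5.42 ± 0.13. Frmd3, Cmtm5 and Rasgef1c completed the 15 highest, at 5.84 ± 0.30, 5.6 ± 0.28 and 5.39 ± 0.18.

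Genes without a measured reference signal are given as bounds. Fgf4, a fibroblast growth factor known from the early embryo, was at least 29.4-fold higher in nerve, with log2 ratios of 4.63, 4.87, 4.85 and 5.15 (adjusted p = 3.32e-07). The galactosyltransferase B3galt2 was at least 7.61-fold higher, the integrin Itgb8 at least 7.11-fold, Jakmip2 at least 6.92-fold and the histamine receptor Hrh1 at least 6.71-fold. The bound of Jakmip2 is that of 1 probe, and its other kept probe gave a log2 ratio of 1.72. Wdr17 and Klrb1a had bounds of 6.02 and 5.24.

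Heart muscle genes marked the other end of the scale. All 22 listed cardiomyocyte genes passed the filter and 22 were called higher in the reference, with a median of -3.88 and medians of -4.07, -3.87, -3.70 and -3.80 on the 4 arrays. Cardiac myosin-binding protein C (Mybpc3) read -5.85, -5.75, -5.53 and -5.47, a mean of -5.65 ± 0.18 (adjusted p = 1.79e-07). The myosin heavy chains Myh7 and Myh6 had means of -5.0 ± 0.19 and -4.52 ± 0.073, the atrial light chains Myl4 and Myl7 of -4.82 ± 0.15 and -4.53 ± 0.073, the calcium pump inhibitors phospholamban (Pln) and sarcolipin (Sln) of -5.36 ± 0.42 and -4.77 ± 0.12, and troponin I (Tnni3) of -4.48 ± 0.13. Cardiac factors were lower in nerve as well, with Tbx20 at least 9.22-fold higher in the reference. Cardiac actin (Actc1), whose promoter is shown above, had the smallest difference, with values of -1.94, -1.61, -1.53 and -1.55 and a mean of -1.66 ± 0.19 (adjusted p = 7.20e-04), and was not called with the scanner program's processed signals (-1.34, adjusted p = 0.0659).

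The nerve channel of such genes was not dark. Over 35 heart and lung genes, the background-subtracted nerve signal rose with the reference signal on the log2 scale, with a Pearson r of 0.895 and a Spearman rho of 0.922. These points share their arrays, spots and probes, so the figures are a description. For the 13 genes with a net reference signal over 10000, the net nerve signal was 7.29% of it in the median. Whether the nerve signal of these genes came from nerve RNA was not tested, and their folds are limited by it.

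The 12 called lung genes, of an organ that the label does not name, lay within the range of the heart genes, and the median of the 13 was -4.23. The surfactant gene Sftpc read -4.37, -4.57, -4.35 and -4.31, a mean of -4.40 ± 0.12 (adjusted p = 2.10e-07), with a reference signal of 96189, 98581, 97043 and 97851 on the 4 arrays. Surfactant genes Sftpd, Sftpa1 and Sftpb had means of -5.24 ± 0.11, -4.45 ± 0.064 and -4.23 ± 0.18, the airway secretory protein Scgb1a1 of -3.72 ± 0.18, the alveolar water channel Aqp5 of -5.31 ± 0.22 and the alveolar type 1 cell receptor Ager of -4.03 ± 0.12. Nkx2-1, the factor that specifies lung and thyroid, had a mean of -2.96 ± 0.14, and the lung mesenchyme factor Foxf1 of -5.30 ± 0.11, with -0.82 from its other probe, while the factor Tbx4 was at least 16.6-fold higher in the reference. Cldn18, at -0.94 ± 0.21 with a nerve signal not well above background, was the 1 gene of 13 not called. Lists of 5 genes each for intestine, pancreas, thymus, skin and brain, also made after the data were seen, had 2, 3, 1, 4 and 1 genes above background in the reference on all 4 arrays. The shares of all spots and genes above background there are given with the label checks. Of these lists 3, 3, 1, 4 and 1 genes were tested, and 1, 1, 0, 0 and 0 were called higher in the reference.

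**Figure D5:**
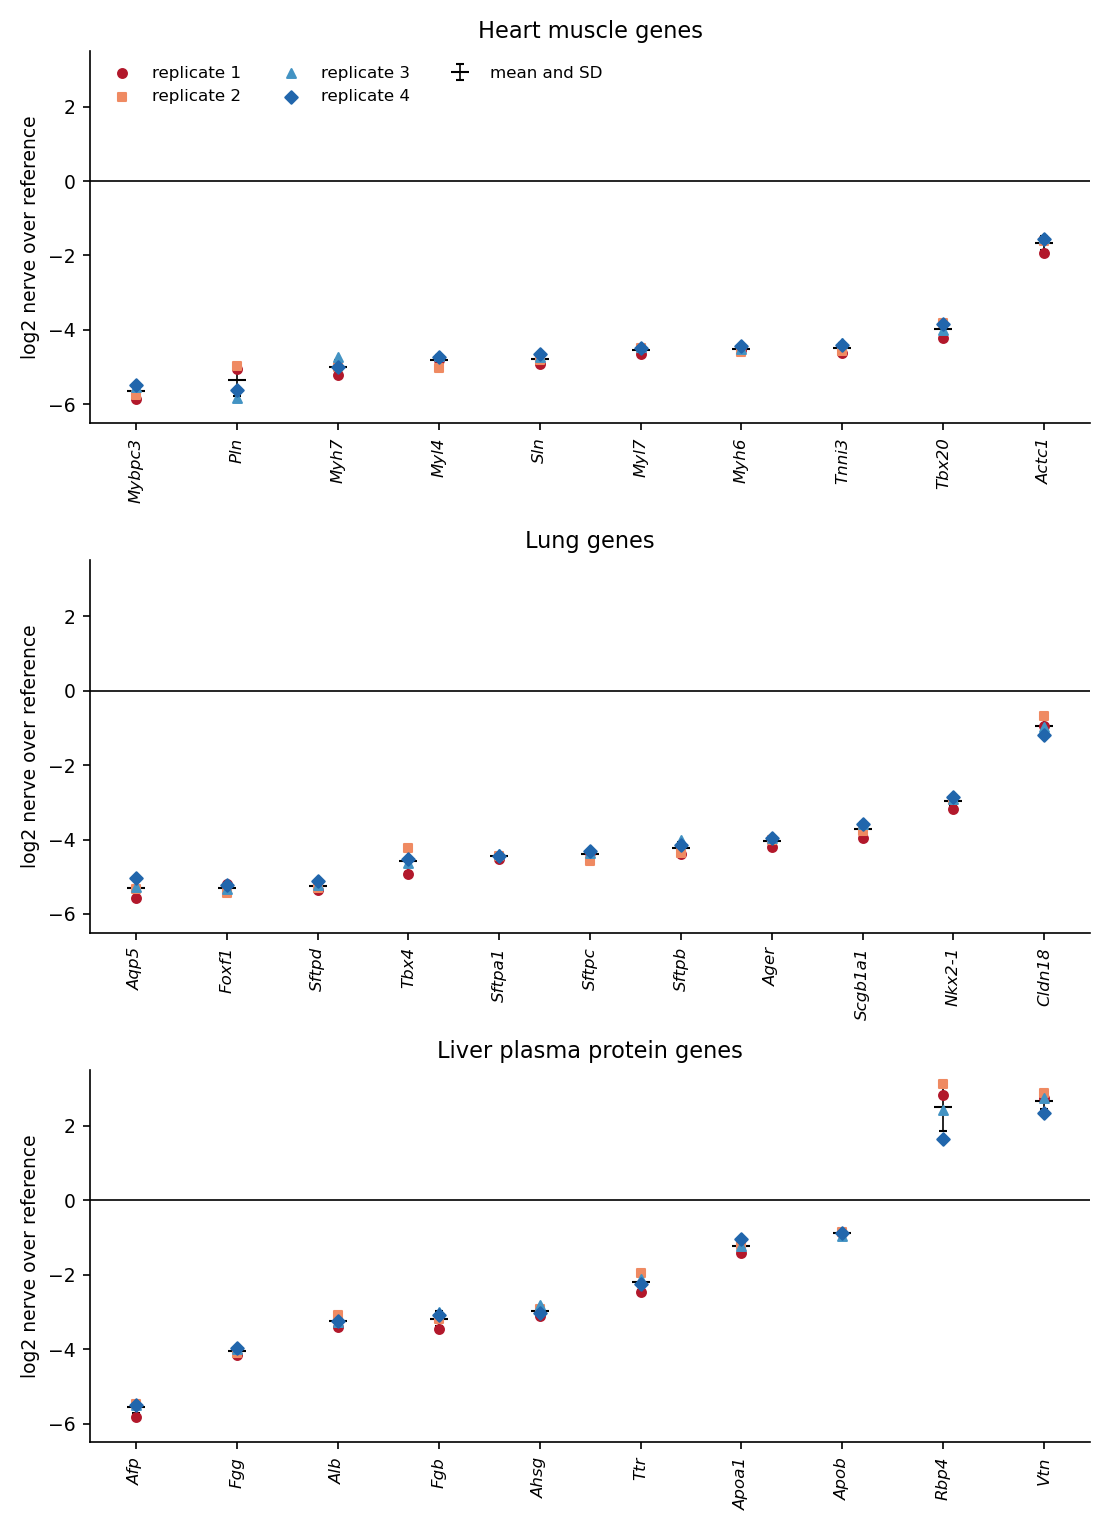
The log2 ratio of nerve over reference (vertical axis) is plotted for the heart muscle, lung and liver plasma protein genes named in the text, as 1 point per array with the mean and SD in black. The heart genes lie between -5.65 and -1.66 and the lung genes between -5.31 and -0.94 in the mean, while the liver genes run from -5.56 for Afp to 2.68 for Vtn.

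Liver genes were higher in the reference in part. Of 22 plasma protein genes, 21 passed the filter, 11 were called higher in the reference and 2 in nerve, with a median of -1.36. Of the 21, 12 had no nerve signal well above background on any array and passed through the reference alone, which largely fixed their side. With both channels required above background on all 4 arrays, 7 were tested. Of these, 3 were called higher in the reference and 2 in nerve, at a median of -0.54. Afp, the main plasma protein of the fetal liver, was at least 41.4-fold higher in the reference, with log2 ratios of -5.80, -5.46, -5.49 and -5.49 and no nerve signal well above background on any array (adjusted p = 1.74e-07). Albumin (Alb) read -3.40, -3.09, -3.28 and -3.25, a mean of -3.25 ± 0.13 (adjusted p = 7.75e-07), and the fibrinogen gene Fgg was at least 11.6-fold higher in the reference. Ahsg and Fgb had means of -2.97 ± 0.14 and -3.18 ± 0.21, and the thyroid hormone carrier Ttr was at least 3.91-fold higher in the reference. Apoa1, at -1.22 ± 0.15, and Apob, at -0.89 ± 0.048, had no nerve signal well above background and were not called, but Apoa1 was without replicate 4 (-1.28, adjusted p = 0.0402). With the scanner program's processed signals, to which no offset is added, the median of the list was -3.34. Vitronectin (Vtn) and the retinol carrier Rbp4 were called higher in nerve instead, at 2.68 ± 0.23 and 2.51 ± 0.64.

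Of 20 liver metabolism genes, 14 passed the filter, 5 were called higher in the reference and 1 in nerve, with a median of -0.88. Of the 14, 7 had no nerve signal well above background on any array and passed through the reference alone. With both channels required above background on all 4 arrays, 7 were tested, with 3 called higher in the reference and 1 in nerve. The gluconeogenic enzyme Fbp1, which kidney also makes, had a mean of -4.41 ± 0.13, and the factor Hnf4a of -2.27 ± 0.086. The cytochrome Cyp2e1 went the other way, with values of 4.81, 5.21, 4.68 and 4.41 and a mean of 4.78 ± 0.33 (adjusted p = 1.20e-06). Pck1, an enzyme of both gluconeogenesis and fat, read 3.19, 2.12, 1.62 and 0.46 without a call, and was called without replicate 4 (2.31, adjusted p = 0.0163). Its order over the arrays, falling from replicate 1 to replicate 4, was that of Plin1, Plin4, Fabp4 and the adipocyte medians. The adipocyte genes Cfd, Car3, Adipoq, Cidec and Retn were highest in replicate 2 instead. Which cells the Pck1 signal came from was not tested.

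Kidney genes kept were all on the side of the reference, with 12 of 19 called there, 0 in nerve and a median of -1.83. Of all genes, 7.43% were called there. Of the 19, 11 had no nerve signal well above background on any array. They passed the filter through the reference alone, which largely fixed their side. With both channels required above background on all 4 arrays, 6 were tested and 4 called higher in the reference, at a median of -1.64. Kap, an androgen-regulated protein of the proximal tubule, was at least 31.4-fold higher in the reference (adjusted p = 6.74e-07). The kidney cadherin Cdh16 had a mean of -5.04 ± 0.20 and the tubular receptor megalin (Lrp2) of -4.41 ± 0.12. By the probe used, the phosphate transporter Slc34a1 was at least 12.6-fold higher, but its other kept probe gave a log2 ratio of -1.16. Uromodulin (Umod) was at least 4.45-fold higher in the reference. Six2, a factor of nephron progenitors, which are lost soon after birth, had a mean of -1.98 ± 0.10, with -0.47 from its other kept probe. Slc12a1, Slc5a2, Egf, Slc22a8, Slc12a3, Wt1 and Cubn were not called.

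Blood cell genes belonged to the reference too. Of 14 erythroid genes kept, 7 were called there and 0 in nerve, with a median of -1.35. Of the 14, 5 had no nerve signal well above background on any array and passed the filter through the reference alone. With both channels required above background on all 4 arrays, 9 were tested and 7 called there. The haem synthesis enzyme Alas2 read -3.65, -3.53, -3.79 and -3.55, a mean of -3.63 ± 0.12 (adjusted p = 4.18e-07), and the globin stabiliser Ahsp had a mean of -3.57 ± 0.20. The globin genes Hba-a1 and Hbb-b2, at -4.02 ± 0.62 and -3.61 ± 0.079, have near-identical copies that these probes may not separate. Klf1 and Gata1 were not called. Of 7 neutrophil genes, from a list made after the data were seen, 5 were called higher in the reference as well, S100a8 by at least 32.3-fold and S100a9 with a mean of -5.19 ± 0.092.

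Among the remaining genes with the lowest ratios were the sodium pump subunit Atp1b1, at -5.66 ± 0.11, complement C5 (Hc), at -5.57 ± 0.14, the palmitoyltransferase Zdhhc22, at -5.12 ± 0.094, the calcium-binding protein S100g, at -5.09 ± 0.14, the Z-disc protein Actn2, at -5.08 ± 0.072, the fatty acid binding protein Fabp3, at -5.05 ± 0.18, and the matrix protein Mfap4, at -4.78 ± 0.27. The stefins Cstdc5 and Stfa1 were at least 46-fold and 34.4-fold higher in the reference and belong to a cluster of close relatives, so their probes may not separate them. Bounds were also given by Bex4 (32.7-fold), Bves (21.8-fold), a membrane protein of striated muscle, Tspan8 (18.7-fold) and the glutathione transferase Gsta2 (16.3-fold).

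Genes of growth were higher in the reference, which differs from the nerves in age, tissue and dye alike. Of 24 cell cycle genes kept, 19 were called higher in the reference and 0 in nerve, with a median of -1.53. Of the 24, 7 had no nerve signal well above background on any array and passed the filter through the reference alone. With both channels required above background on all 4 arrays, 15 were tested and 13 called higher in the reference. Mki67, the antigen of cycling cells, read -2.68, -2.87, -3.19 and -3.29, a mean of -3.01 ± 0.28 (adjusted p = 1.02e-05), ribonucleotide reductase (Rrm2) had a mean of -3.28 ± 0.24, survivin (Birc5) of -3.06 ± 0.33, and the cyclins Ccna2, Ccnb2 and Ccnb1 of -2.81 ± 0.13, -2.53 ± 0.12 and -2.53 ± 0.15. The replication clamp Pcna, which is also used in DNA repair, stood at 0.05 ± 0.15 without a call. Without replicate 1, 18 were called.

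Fetal and imprinted growth genes followed, with 11 of 17 called higher in the reference, 0 in nerve and a median of -1.53. Of the 17, 4 had no nerve signal well above background on any array and passed the filter through the reference alone. With both channels required above background on all 4 arrays, 13 were tested and 9 called higher in the reference. The membrane signal Dlk1 read -3.87, -4.57, -4.76 and -4.39, a mean of -4.40 ± 0.38 (adjusted p = 3.14e-06), and Mest, expressed from the paternal copy, had a mean of -4.04 ± 0.14. The growth factor Igf2 and the non-coding RNA H19, which share an imprinted domain, had means of -2.05 ± 0.087 and -1.79 ± 0.078, and the scavenging receptor Igf2r of -2.60 ± 0.10. The RNA-binding protein Igf2bp3 was at least 3.18-fold higher in the reference. Sgce, at 1.11 ± 0.16, and Ndn, at 0.44 ± 0.093, had positive ratios without a call.

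Genes of the circadian clock went both ways. Of 14 kept, 4 were called higher in nerve and 1 in the reference, against 7.48% and 7.43% of all genes. The median was 0.66, or -1.26 with the spike-in zero. Dbp, a clock-driven transcription factor, read 2.96, 3.31, 3.35 and 3.15, a mean of 3.19 ± 0.17 (adjusted p = 1.62e-06), and Nr1d1 (Rev-erb alpha), the repressor of Arntl, read 2.16, 1.94, 2.11 and 1.85, a mean of 2.02 ± 0.15. The relatives of Dbp, Tef and Hlf, stood at 1.65 ± 0.13 and 1.46 ± 0.10. Nfil3, which binds the same sites as Dbp with the opposite effect, was called higher in the reference at -1.76 ± 0.47 (adjusted p = 0.0134), a call lost without replicate 3 (adjusted p = 0.0709) or replicate 4 (adjusted p = 0.0510), and Arntl stood at -0.91 ± 0.43 without a call. The time of day at which nerves or organs were taken was not given in the sources used here, and its part was not tested.

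Hox genes record position along the body axis. Of 39 listed, 29 passed the filter, 6 were called higher in the reference and 1 in nerve, with a median of -0.56. Of all genes, 7.43% and 7.48% were called so. The call in nerve was Hoxc6, with values of 2.92, 2.13, 2.15 and 2.00 and a mean of 2.30 ± 0.42 (adjusted p = 5.11e-04). The other 5 kept genes of the HoxC cluster also had positive ratios, with Hoxc11 at 1.32 ± 0.27, Hoxc4 at 1.31 ± 0.32, Hoxc9 at 1.22 ± 0.21, Hoxc5 at 0.81 ± 0.19 over a reference signal not well above background, and Hoxc10 at 0.24 ± 0.29, without a call, although Hoxc11 was called without replicate 4 (1.44, adjusted p = 0.00988). With the spike-in zero 0 of the 29 were called higher in nerve and 23 in the reference, so the call of Hoxc6 holds relative to the bulk of genes only.

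The reference calls came from the other clusters: Hoxa5 at -2.34 ± 0.10, Hoxb5 at -1.72 ± 0.31, Hoxa3 at -1.60 ± 0.15 and Hoxb6 at -1.37 ± 0.10, with Hoxa11 at least 2.53-fold and Hoxb3 at least 2.25-fold higher, their nerve signal not being well above background. Hoxb3 rests on 1 probe, since its other probe gave 0.03. The 6 kept HoxD genes had negative ratios without a call, from -1.23 for Hoxd11 to -0.24 for Hoxd9, and Hoxd11 was called without replicate 2 (-1.32, adjusted p = 0.0425). Of the remaining HoxA genes, Hoxa7, Hoxa9 and Hoxa10 stood at 0.72 ± 0.27, 0.22 ± 0.18 and 0.01 ± 0.17, and Hoxa2 and Hoxa4 at -1.09 ± 0.11 and -0.19 ± 0.085; in Hoxa2, Hoxa4 and Hoxd11 the nerve signal was not well above background on any array. Hoxb2, Hoxb4, Hoxb7, Hoxb8 and Hoxb9 lay between -1.15 and -0.67, without a call.

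The mitochondrial energy genes leaned to the reference. Of 38 genes of oxidative phosphorylation kept, 11 were called higher in the reference and 0 in nerve, against 7.43% and 7.48% of all genes. The median was -0.89. The muscle and heart isoforms Cox6a2 and Cox8b had the lowest ratios, with means of -4.70 ± 0.41 and -4.12 ± 0.77, and Cox7a1, of the same kind, had a mean of -1.78 ± 0.26. The ubiquitous isoforms Cox6a1 and Cox8a stood at 0.38 ± 0.076 and 0.17 ± 0.084 without a call. Cytochrome c1 (Cyc1) and the complex I or IV subunit Ndufa4 had means of -1.85 ± 0.18 and -1.76 ± 0.052.

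Housekeeping complexes lay close to the bulk of the genes after loess. Of 14 proteasome core genes 0 were called by limma's treat test and 0 had a mean beyond a doubling, so that 0 had an unadjusted p under 0.05, while limma's eBayes test against a ratio of 0 called 1 higher in nerve and 7 in the reference. Their ratios ran from -0.77 for Psma4 to 0.37 for Psmb4 around a median of -0.15. Of 30 genes of the small ribosomal subunit 1 was called, Rps7 at -1.61 ± 0.089, and the median was -0.30. The eBayes test against 0 called 1 of them higher in nerve and 20 in the reference. The treat test called 4 higher in the reference with median centring, at a median of -0.762. With quantile normalization it also called 4, at a median of -0.445. With the spike-in zero all 14 and all 30 were called higher in the reference, at medians of -2.06 and -2.21.

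The brightest genes of the nerve channel included genes of myelin, matrix and iron storage. The first was Apod, a lipid-binding protein secreted by glia and fibroblasts, with Cy3 signals of 182843, 157746, 164446 and 167470 on the 4 arrays and a log2 ratio of 4.81 ± 0.22. It was followed by Sparc, a matrix protein, the ferritin chain Fth1, Dcn and Cfd. Actb, Prx, Exosc2, Mal, the small heat shock protein Cryab, Tuba1b, Pmp22, Col1a2, Fxyd6 and Ndrg1 completed the first 15. Of these, 14 were called higher in nerve and Actb, at 0.73 ± 0.14, was not. The calls of Exosc2, at 1.21 ± 0.063 (adjusted p = 0.0252), and Tuba1b, at 1.23 ± 0.038 (adjusted p = 0.0139), did not hold on every set of 3 arrays: that of Exosc2 was lost without replicate 1, 2 or 4 and that of Tuba1b without replicate 2 or 4. Brightness depends on how each probe binds, so no order of transcript amounts follows from it. Cfd was the least even, with signals of 212152, 138733, 95001 and 57903, in the order of the adipocyte list.

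The 4 nerves agreed closely for most genes, with a median SD of 0.134 over all genes, while 100 genes spanned more than 2 on the log2 scale and 72 had an SD over 1. Of these 72, 12 were called. Besides the muscle genes they held the major urinary proteins, secreted pheromone carriers, with Mup20 at 6.43, 4.04, 4.24 and 1.47 and Mup3 at 4.10, 2.39, 2.70 and 0.43, the latter over a reference signal not well above background, close relatives that their probes may not separate. Smco3, at 2.17, 4.79, 2.63 and 6.08, and Clvs1, at 3.06, 3.46, 5.17 and 6.12, had their highest value in replicate 4, while osteopontin (Spp1), at 0.64, 3.07, 3.17 and 0.79, was high in replicates 2 and 3. On the first principal component, with 58.9% of the variance over 19963 genes, the arrays lay at 31.1, 4.85, -12.7 and -23.3, an order shared with adipocyte and, but for 1 exchange, skeletal muscle medians. These genes were chosen after their values were seen, and their calls rest on few arrays: those of Mup20 and Smco3 were lost without replicate 2 (adjusted p = 0.0702 and 0.0681), and Mup3 was called without replicate 4 (3.06, adjusted p = 0.00392).

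Of 5073 genes with several kept probes, 3830 had all of them on 1 side of 0, and of the 834 called ones 779 did. Among named genes with a call, the probes of Itga6, Kdr and Hoxb3 disagreed in sign, as given above. Probes of other named genes agreed in sign but lay more than 1 apart. Examples are Frmd3 (2.53 to 5.84), Drp2 (4.37 to 6.52), Aqp5 (-5.31 to -2.20) and Dlk1 (-4.40 to -2.65). Ccnb1 (-2.53 to -0.63) and Birc5 (-3.06 to -1.18) are further ones. In Pmp22 and Cntf (6.95) the other probe gave the larger ratio. Means and bounds are thus those of the probe used, not limits for the gene.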

How the data were processed

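Total RNA of sciatic nerve and of the neonatal pool was amplified, labelled and hybridised on Agilent 2-colour arrays, per the labels' protocols. The deposited scanner files hold spot and local background intensity in both dyes on a linear scale, with flags and other values without a scale. Per the file headers the program was Feature Extraction 11.5.1.1, whereas the submitters' processing notes give 11.0.1.1, and limma. The log10 ratios of the deposited series table, Cy5 over Cy3, served only as an alternative, with the sign turned. All 4 wild-type arrays lay on 1 slide with 1 scan time, so neither could be fitted as a batch. The number of arrays limits the precision.

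Mean spot intensity was corrected for median local background (normexp, offset 50) and normalized by loess within each array, control spots having weight 0, in limma 3.58.1 and R 4.3.3. Flagged spots (207 to 231 per array) were left out and spots of 1 probe averaged. The offset pulls ratios towards 0 where a channel is dim. Probes well above background in 1 and the same channel on at least 3 of 4 arrays were kept, and each gene took its probe with the highest mean of both channels. Symbols came from RefSeq by accession for 14357 of 19977 genes and otherwise from the array's design. Promoter sequences are RefSeq's, build GRCm38.p6, while probe positions are the file's, build mm9. The treat test (2-sided, intercept only) covers the spread of 4 nerves, not of the pool. Psmb5 was fitted on 3 arrays. For a channel not well above background on any array, a lower bound was taken after loess and Aquantile scaling. On simulated data for this comparison with 19977 genes, of which 200 were changed, 68% of changes of log2 1.5, 93% of 2 and 99.6% of 3 were recovered, with 0 false calls per run. Unchanged genes were simulated at a ratio of 0, far from the threshold of 1, so few false calls could arise. No shift of the zero was simulated, so these figures do not measure the error rate of the real calls.

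Named genes were the 15 per direction with the largest ratios in both channels, the 10 per direction with the largest bounds, the 15 brightest in Cy3, up to 8 members of each list by size and up to 4 on the opposite side, Pmp22, Prx and all Hox genes kept. A few genes that the rule covers are not reported here. Genes named beyond this rule were picked with their values known. The members and the 28 lists were chosen with earlier results of these data known, and 8 further lists were added after the data were seen. Alternatives were other background handling, normalization, filters, probes, tests and sets of arrays, and a zero set by the spike-ins, which was added after the data were seen.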

Additional observations from a re-analysis of the deposited data

Results flagged for a closer look

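Of 303 results tested, 19 had 1 array set apart from the other 3, a share close to the 5% that chance gives. The array labelled wild-type replicate 1 was the one apart in 16 of them. The genes tested were those named in the text, among them Ddx3y, Eif2s3y and Xist, reported above because this array differed. The median of the lipid list was tested beside its own members. The 16 are therefore neither independent nor chosen blind to this array. The size of each gap is given as a share of the whole range of the 4 values.

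Replicate 1 was lowest in lipid and myelin genes: Lss (0.977), Fdps (0.974), Sqle (0.848), Elovl1 (0.877), Fa2h (0.852) and Gjb1 (0.948). The median of the myelin lipid list was apart in the same way (0.945), at 2.20 against 2.80, 2.83 and 2.83. It was also lowest in the collagen genes Col1a1 (0.904) and Col1a2 (0.84), in Cryab (0.836), Afp (0.916) and Kap (0.842), and in the Y-linked genes Ddx3y (0.957) and Eif2s3y (0.927). It was highest in Xist (0.869) and Hoxc6 (0.842). Replicate 4 was apart in Hrh1 (0.9) and Slc5a2 (0.861) and replicate 3 in Exosc2 (0.84).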

How the results depend on the processing

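Without normalization 2891 genes were higher in nerve and 653 in the reference, against 1495 and 1485, with the median of all genes at 0.53. The eBayes test against a ratio of 0 called 6681 and 8551, and the zero set by the spike-ins 185 and 16285. Agilent's processed signals and the deposited series table, which carry no offset, gave 3175 reference calls each. Testing only genes above background in both channels on all 4 arrays, which removes genes dim in either channel, left 801 reference calls. Leaving out 1 array gave 1253 to 1534 nerve calls and 1287 to 1510 reference calls. The other settings stayed within 1.5 times of both counts. With the probe of the highest Cy3 signal, Kdr turned to 0.22 and Hoxb3 to 0.0333, because another probe was chosen. The median of the Hox list turned to 0.0899 and that of the proteasome to 0.22 without normalization. Of 2980 calls, 2869 were shared with the processed signals and 2865 with the set without replicate 1, all in the same direction. Of 274 named genes, 245 kept call and direction with the processed signals, 257 with median centring, 219 without normalization and 264 with quantile normalization. No paired analysis was possible because the replicate numbers pair these nerves with no second group: each value is a ratio within 1 array, already paired with the pool, and leaves no further block. Where the nerve channel is near background, folds are bounds only.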
